A study of Homo sapiens with 6 samples.

Results

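The 41 genes described here act at the G1/S transition and in DNA replication. They were taken from the table by gene symbol, from a list of G1/S cyclins, cyclin-dependent kinases and their inhibitors, RB and E2F genes, MCM and origin genes, and enzymes that make DNA precursors. The list was drawn up by function, with no threshold on a measured value. All 41 were among the 19225 genes of the table, and all 41 passed the filter of a mean of at least 0.5 FPKM (fragments scaled to the length of the gene and to the reads of the library). They were measured by RNA sequencing in SW480 cells, a line from a colon cancer that carries mutant p53, in 3 control libraries and in 3 libraries from cells transiently transfected with plasmids encoding MDM4, a p53-binding relative of the ubiquitin ligase MDM2. The labels name plasmid transfection for both groups and call the second group "exercised"; what the control cells received, the time after transfection and the share of cells that took up plasmid are not given in the sources used here. The level of *MDM4* itself was 6.35, 7.09 and 5.13 FPKM in the control libraries and 188, 185 and 56.3 FPKM in the transfected ones, in order of replicate number. The groups did not overlap (p = 0.1 in an exact permutation test, two-sided, which is the lowest p possible with 3 libraries a group). The log2 difference was 4.33 (standard error 0.435, limma adjusted p = 0.161), and a block for the replicate number brought the adjusted p to 4.77e-05. Leaving out MDM4 replicate 3, the transfected library with the lowest *MDM4* level, gave a difference of 4.91 (limma adjusted p = 1.75e-06). Leaving out control replicate 3 gave 4.20 (limma adjusted p = 0.0174).

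Each library had 32923184 to 44563621 reads on genes. The colon epithelial markers *EPCAM*, *KRT8*, *KRT18*, *KRT19*, *CDX2*, *VIL1* and *CDH1* were present in every library, with summed levels between 4221 and 4901 FPKM. Of 10 leukocyte, fibroblast and endothelial markers, 2 had a mean of at least 0.5 FPKM (*CD14* and *COL1A1*). Nothing in the labels says that the 3 libraries of a group came from separate cultures, so p-values measure the spread between these libraries, which may be technical. In bulk RNA, fewer cells in S phase and less RNA of a gene per cell cannot be told apart.

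As background, a cell commits to DNA replication when cyclin D with *CDK4* or *CDK6*, and then cyclin E with *CDK2*, phosphorylate RB. Phosphorylated RB releases E2F factors, which switch on genes for replication, among them the cyclin E genes and several E2F genes themselves. Before S phase, ORC, *CDC6* and *CDT1* load the MCM helicase onto origins. Once *CDC45* and GINS join the helicase, DNA is unwound and copied by polymerases that the *PCNA* clamp holds on the template. In colon cancer cells *CCND1* is also known as a target of Wnt signalling, and G1/S genes are commonly high in dividing tumour cells.

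The members differed widely in level. *CCND1*, which encodes cyclin D1, had a mean of 479 FPKM over the 6 libraries, the highest of the 41 members and 12.2-fold above *CCND3*. *CCND2*, another D-type cyclin gene, had a mean of 2.32 FPKM, the lowest of the 41. The 6 values of *CCND1*, *CCND3* and *CCND2* did not overlap, so that this order held in every library. *CCNE1* and *CCNE2*, the cyclin E genes, had means of 15.1 and 13.4 FPKM. Their ranges over the libraries overlapped, but *CCNE1* was the higher of the pair in every library. Among the kinases, *CDK4* was at 87.7 FPKM, and *CDK6*, which pairs with the same cyclins, was at 27.0 FPKM. Of the activating E2F genes, *E2F1* had a mean of 27.4 FPKM and *E2F2* of 4.25 FPKM, a ratio of 6.46. The 6 subunits of the MCM helicase act in one ring, yet *MCM7* was at 240 FPKM and *MCM5* at 51.2 FPKM. *MCM7* lay above the 5 other subunits in every library. The ranges of *MCM5* and *MCM6* overlapped, but *MCM6* was the higher of the pair in every library. FPKM is a level per length, so that these ratios compare genes, but 13 members share exonic bases with another protein-coding gene in GENCODE release 29, among them *MCM7* with *AP4M1*, *CDK4* with *TSPAN31* and *TYMS* with *ENOSF1*. Whether the authors' counting used strand is not given in the sources used here, so reads of such pairs may be mixed.

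**Figure D1:**
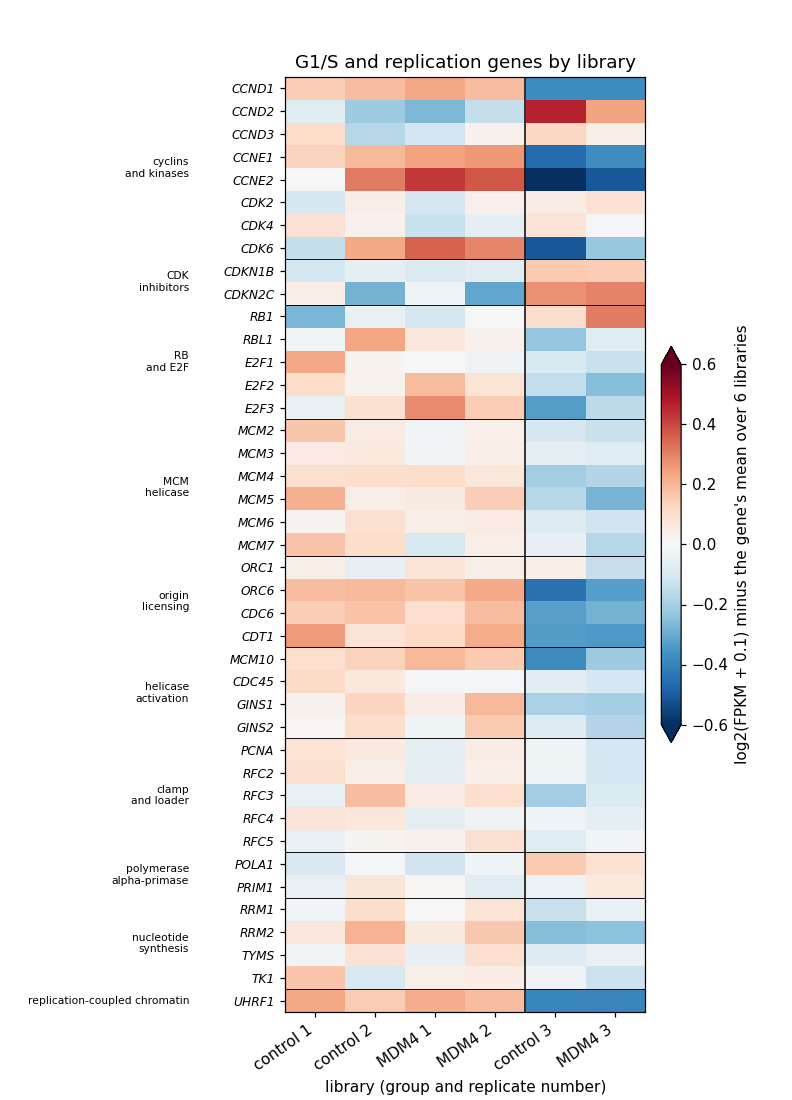
Log2(FPKM + 0.1) of each of the 41 genes (rows, grouped by role) in each of the 6 libraries (columns), as the difference from that gene's mean over the 6 libraries; red is above and blue below the mean, and differences past 0.6 have the end colour. The columns of control 3 and MDM4 3, right of the black line, are mostly blue, with red for CCND2, CDKN1B, CDKN2C and RB1, while control 1 and 2 resemble MDM4 1 and 2.

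The first comparison asked whether raised MDM4 changed these genes in cells with mutant p53. Of the 41 members, 0 were called between MDM4 and control libraries (limma adjusted p under 0.05), against 0% of all 12884 genes tested, and 0 members had an unadjusted p under 0.05, against 1.72% of all genes. With voom on recovered reads, 0 members and 0% of all genes were called, and *MDM4* itself was not called. These counts of 0 do not set the members apart from other genes. The members' log2 differences ran from -0.15 (*MCM7*) to 0.28 (*CDK6*), with a median of 0.00 against -0.01 for all genes. An absolute log2 difference over 0.3 was fitted for 0 members and for 5.47% of all genes. By pair of the same number, the members' median MDM4 minus control difference stayed between -0.01 and 0.01. The 95% intervals of single members were wide, from -0.66 to 0.43 for *CCND2* and from -0.52 to 0.90 for *CCNE2*, so that the p-values do not show equal levels.

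*CDK4* had the smallest p of the members. Its control libraries were at 93, 89.1 and 92.7 FPKM and its MDM4 libraries at 79.9, 84.4 and 86.9 FPKM, in order of replicate number. All MDM4 values lay below all control values. The log2 difference was -0.13 (95% interval -0.27 to 0.01), with an exact two-sided permutation p of 0.1 and a limma p of 0.0696 (adjusted p = 1). *RFC4*, a subunit of the clamp loader, was the 1 other member whose groups did not overlap. It was at 49.4, 48.9 and 46.1 FPKM in the control and at 45.1, 46.1 and 45.1 FPKM in the MDM4 libraries, a difference of -0.08. Groups did not overlap in 6.85% of all genes, and in 3.76% with MDM4 lower, so that 2 of 41 members is close to the share over all genes.

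*CDK6* had the highest difference of the members. Its control libraries were at 23.9, 31.0 and 18.5 FPKM and its MDM4 libraries at 33.8, 32.4 and 22.5 FPKM. The MDM4 library was above the control library of the same number in each pair, but the ranges overlapped, since replicate 3 was low in both groups (log2 difference 0.28, standard error 0.216, limma adjusted p = 1). In a fit blocked on replicate number, the limma adjusted p of *CDK6* was 0.294. *MCM7* was at 269, 257 and 231 FPKM in the control and at 223, 245 and 212 FPKM in the MDM4 libraries, lower in each pair (log2 difference -0.15, limma adjusted p = 1). With the block, 4 members had an unadjusted p under 0.05, which are *CDK6*, *MCM7*, *E2F3* and *CDK4*, against 12.6% of all genes. That fit called 0 members and 0.0155% of all genes.

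Several key regulators had nearly equal means in both groups. *CDKN1B*, the inhibitor p27 that holds cyclin E and *CDK2* in check, averaged 25.2 ± 2.51 FPKM in control and 25.2 ± 2.32 FPKM in MDM4 libraries (SD, n = 3 each). *CCND1* averaged 474 ± 95.6 FPKM in control and 484 ± 105 FPKM in MDM4 libraries (SD, n = 3 each). *CDC6*, the loader of the helicase, averaged 42.6 ± 7.76 and 42.5 ± 7.05 FPKM (SD, n = 3 each), and *UHRF1*, which carries DNA methylation through replication, averaged 40.9 ± 8.97 and 41 ± 9.07 FPKM (SD, n = 3 each). Within each group the SD of *CCND1*, *CDC6* and *UHRF1* was large beside the difference between groups, because replicate 3 was low in both.

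**Figure D2:**
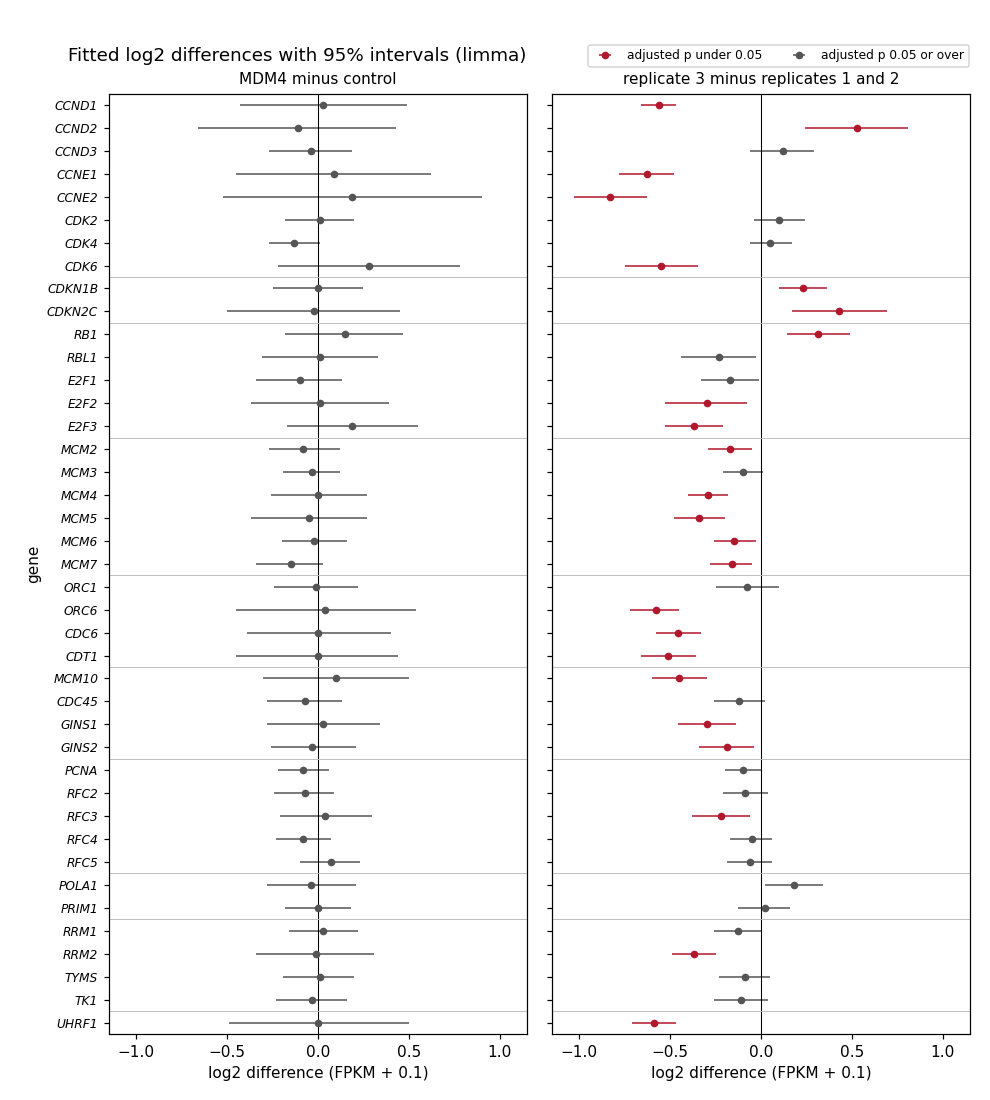
Fitted log2 difference of each of the 41 genes (points) with its 95% interval (bars) on the log2(FPKM + 0.1) scale, for MDM4 minus control on the left and replicate 3 minus replicates 1 and 2 on the right; red marks a limma adjusted p under 0.05. On the left every interval includes 0, and on the right 20 genes are called lower and 4 higher.

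The second comparison set the replicate 3 libraries of both groups against the 4 libraries of replicates 1 and 2, with the group as a term. Replicate 3 had been singled out in earlier work on these data, so that p-values describe these libraries. Of the 41 members, 24 (58.5%) were called (limma adjusted p under 0.05), against 44.1% of all 12884 genes. Their split by direction, a description with no test, was unlike that over all genes. Among the members 20 (48.8%) were lower in replicate 3 and 4 (9.76%) higher, while 14.6% of all genes were lower and 29.6% higher. The members' median log2 difference was -0.16 against 0.09 over all genes. With an absolute log2 difference over 1 also asked, 0 members were called, against 2.54% of all genes. Both replicate 3 libraries lay outside the 4 others in 30 members, against 55.7% of all genes. They were below the others in 24 members and above them in 6, against 18.4% and 37.3% of all genes. The summed level of the 41 members was 2267 FPKM in control replicate 3 and 2231 FPKM in MDM4 replicate 3, and between 2605 and 2686 FPKM in the 4 others. This sum weighs members by their level. *CCND1* alone was at 363 FPKM in both replicate 3 libraries and at 522 to 554 FPKM in the others.

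The number of calls rested on both replicate 3 libraries. Without control replicate 3 there were 13, all lower, where 22.2% of all genes were called and 7.49% were lower. Without MDM4 replicate 3 there were 11, all lower, where 18.8% of all genes were called and 7.15% were lower. The 11 were *CCND1*, *CCNE1*, *CCNE2*, *CDK6*, *MCM4*, *ORC6*, *CDC6*, *CDT1*, *MCM10*, *RRM2* and *UHRF1*, which were called lower under each of the other scalings, filters and fits too, other than the stricter call on size. The 13 other called members lost their call in at least 1 of these settings. The scaling moved the split of the calls. Median ratio scaling, which shifted the median of all genes in replicate 3 from 0.09 to -0.01, gave 31 members lower and 2 higher, with 23.0% of all genes lower. Quantile normalization gave 19 lower and 2 higher, with 19.7% of all genes lower.

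The cyclin E genes had the lowest differences of the 41 members. *CCNE2* was at 8.48 and 9.03 FPKM in replicate 3 of control and MDM4, and at 12.9 and 16.0 FPKM in the other control and 17.3 and 16.7 FPKM in the other MDM4 libraries. Its replicate 3 level was 55.7% of that in replicates 1 and 2 (log2 difference -0.83, standard error 0.0919, limma adjusted p = 8.90e-05). *CCNE1* was at 10.7 and 11.4 FPKM in replicate 3 and between 16.3 and 17.7 FPKM in the 4 others (log2 difference -0.63, standard error 0.0661, limma adjusted p = 6.58e-05). Both cyclin E genes thus lay apart from the other libraries in both groups. *CCND1* was at 363 FPKM in both replicate 3 libraries and at 522, 535, 554 and 535 FPKM in the others, 67.7% of their mean (log2 difference -0.56, limma adjusted p = 1.46e-05). The D-type cyclins did not move together. *CCND2* was higher in replicate 3, at 3.17 and 2.71 FPKM against 1.87 to 2.16 FPKM (log2 difference 0.53, limma adjusted p = 0.00737), and *CCND3* gave 0.12 (limma adjusted p = 0.255). *CCND2* was covered by 445 to 832 reads per library, was left at 0.26 by quantile normalization (limma adjusted p = 0.119) and was not called when either replicate 3 library was left out.

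Of the kinases, *CDK6* was lower in replicate 3 and *CDK4* and *CDK2* were not called. *CDK6* stood at 18.5 and 22.5 FPKM in replicate 3 against 23.9 to 33.8 FPKM (log2 difference -0.55, standard error 0.0911, limma adjusted p = 8.33e-04). *CDK2*, the partner of cyclin E, was at 51.8 and 53.2 FPKM in replicate 3 against 46.7 to 51.6 FPKM (log2 difference 0.10, limma adjusted p = 0.228). *CDK4* was at 92.7 and 86.9 FPKM against 79.9 to 93 FPKM (log2 difference 0.05, limma adjusted p = 0.424). With median ratio scaling the values of *CDK2* and *CDK4* were -0.01 and -0.05. The ratio of *CCNE1* to *CDK2* was 0.206 and 0.213 in replicate 3 and 0.327 to 0.374 in the 4 others.

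Both inhibitors of cyclin-dependent kinases among the members were called higher in replicate 3, as were 29.6% of all genes. *CDKN1B* was at 28.1 and 27.9 FPKM, against 23.4 and 24.2 FPKM in the other control and 23.8 and 24.0 FPKM in the other MDM4 libraries (log2 difference 0.23, standard error 0.0587, limma adjusted p = 0.00923). *CDKN2C*, the inhibitor p18 of *CDK4* and *CDK6*, was at 6.98 and 7.10 FPKM, against 4.61 to 5.92 FPKM (log2 difference 0.43, standard error 0.119, limma adjusted p = 0.0137). These levels did not overlap with the other libraries in either gene, and replicate 3 lay above the others in 37.3% of all genes. Neither call held without control replicate 3 or without MDM4 replicate 3. With median ratio scaling *CDKN1B* was at 0.13 (limma adjusted p = 0.107) and *CDKN2C* at 0.33 (limma adjusted p = 0.0452), and with quantile normalization they were at 0.22 (limma adjusted p = 0.0142) and 0.27 (limma adjusted p = 0.0896). The ratio of *CDKN1B* to *CCNE1* was 2.63 and 2.46 in replicate 3 and 1.36 to 1.44 in the 4 others.

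**Figure D3:**
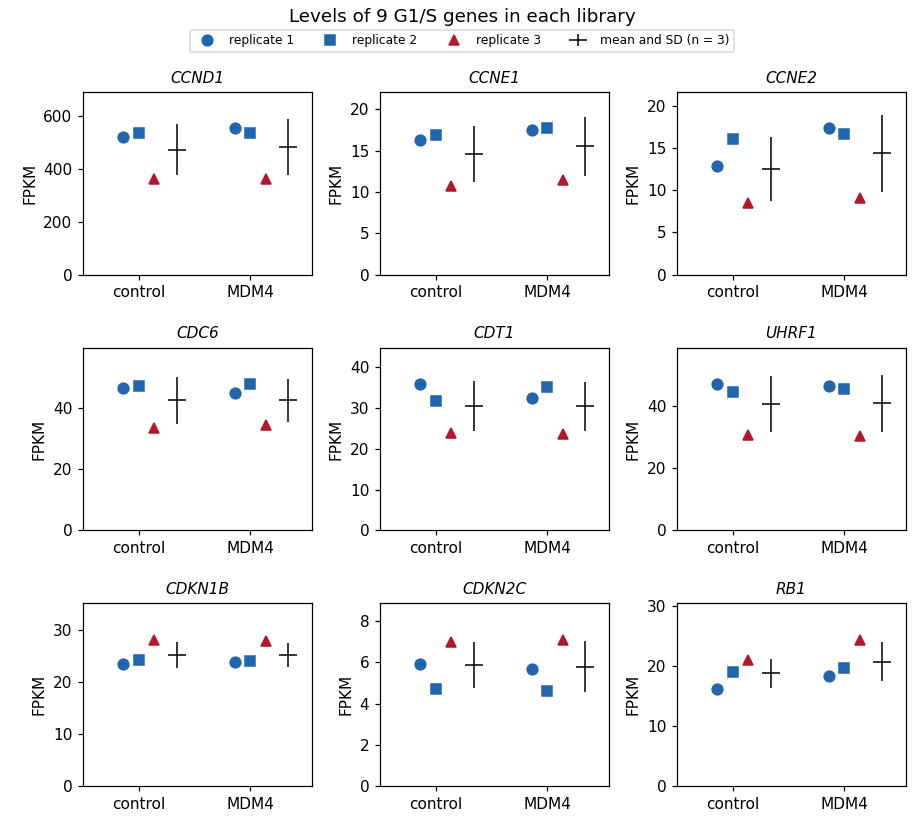
FPKM of 9 of the genes in each library, with replicates 1 and 2 in blue and replicate 3 in red, for the control and MDM4 groups; black marks give each group's mean and SD (n = 3), and each axis starts at 0. Replicate 3 lies below replicates 1 and 2 in both groups for CCND1, CCNE1, CCNE2, CDC6, CDT1 and UHRF1 and above them for CDKN1B, CDKN2C and RB1.

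Within the RB and E2F group, *RB1* rose and *E2F2* and *E2F3* fell in replicate 3. *RB1*, which encodes the repressor that E2F factors bind, was at 21.1 and 24.4 FPKM in replicate 3 and at 16.2, 19.0, 18.3 and 19.6 FPKM in the others (log2 difference 0.31, standard error 0.0783, limma adjusted p = 0.00846). With median ratio scaling it was at 0.21 (limma adjusted p = 0.0521), and it was not called when either replicate 3 library was left out. *E2F3* was at 12.5 and 14.1 FPKM against 15.3 to 19.2 FPKM (log2 difference -0.37, limma adjusted p = 0.00247). *E2F2* was at 3.80 and 3.52 FPKM against 4.29 to 4.84 FPKM (log2 difference -0.30, limma adjusted p = 0.0338). Both E2F genes were below all 4 other libraries. *E2F1* (log2 difference -0.17, limma adjusted p = 0.0736) and *RBL1*, the gene of the RB relative p107 (log2 difference -0.23, limma adjusted p = 0.0631), were not called, although their replicate 3 values also lay below the 4 others. The ratio of *RB1* to *E2F1* was 0.821 and 0.982 in replicate 3 and 0.505 to 0.726 in the others.

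E2F factors bind DNA of a short known pattern, and the promoters of the members were searched for it as a description of their sequence. RefSeq promoters on GRCh38.p14, from 250 bases before to 50 after each start, were at hand for 35 of the 41 members. The 4 patterns searched on both strands were TTTGGCGC, TTTCCCGC, TTTCGCGC and TTTGCCGC, of which 2 can overlap on opposite strands. At least 1 occurred in 17 of the 35 members (48.6%), against 3.33% of all 27305 promoters in the table and 5.25% of those of tested genes. It occurred in 11 of 16 members lower in replicate 3 (68.8%), in 6 of 16 that were not called (37.5%) and in 0 of 3 that were higher. Among the 8 with a promoter that were lower under all alternatives other than the stricter call on size, 3 held it (37.5%), and of the tested genes lower in replicate 3, 6.95% held it. TTTGAA, a pattern of genes that peak in mitosis, occurred in 2 of the 35 (5.71%), in 15.4% of all promoters and in 9.39% of those of tested genes. A match is not a bound site, and no binding was measured here. The 8 stretches that follow are from members lower in replicate 3 with a match wholly before the start; they are shown because the match is what these promoters share, on the gene's strand, 5′ to 3′, with the matches in capitals (on the opposite strand TTTCCCGC reads GCGGGAAA).
E2F2 (chr1:23531248-23531295, minus strand): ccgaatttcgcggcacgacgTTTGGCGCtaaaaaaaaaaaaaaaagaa
E2F3 (chr6:20401806-20401853, plus strand): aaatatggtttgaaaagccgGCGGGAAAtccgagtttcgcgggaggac
MCM6 (chr2:135876502-135876615, minus strand): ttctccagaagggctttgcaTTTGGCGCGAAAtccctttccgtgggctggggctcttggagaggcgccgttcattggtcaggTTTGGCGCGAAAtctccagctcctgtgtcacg
MCM7 (chr7:100101398-100101426, minus strand): cggtcacgtggggggcgacgTTTCGCGCc
CDT1 (chr16:88803734-88803781, plus strand): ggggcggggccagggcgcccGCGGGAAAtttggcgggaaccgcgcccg
GINS2 (chr16:85688958-85689005, minus strand): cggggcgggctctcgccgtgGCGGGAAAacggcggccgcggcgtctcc
RFC3 (chr13:33818074-33818121, plus strand): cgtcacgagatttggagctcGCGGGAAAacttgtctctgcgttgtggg
UHRF1 (chr19:4909467-4909500, plus strand): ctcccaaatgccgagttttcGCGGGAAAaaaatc

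In *E2F2* and *E2F3*, the genes of 2 factors that bind this pattern, the match began at positions -42 and -53 from the start. *MCM6* held 4 matches in 2 places, each of them TTTGGCGC overlapping TTTCGCGC of the opposite strand. *MCM7* held a further match, TTTCCCGC on the opposite strand at -187 to -180, which lies outside the stretch shown. The calls of *E2F2*, *E2F3*, *MCM6*, *MCM7*, *GINS2* and *RFC3* were lost under at least 1 alternative besides the stricter call on size, under which 0 members were called, while those of *CDT1* and *UHRF1* were lost under that call alone.

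*MCM2* to *MCM7* encode the 6 subunits of the replicative helicase. In replicate 3, 5 of the 6 were called lower, against 14.6% of all genes. The log2 differences of the 6 ran from -0.34 to -0.10. *MCM5* was at 45.1 and 41.9 FPKM in replicate 3 and at 58.9, 52.1, 52.7 and 56.3 FPKM in the others (log2 difference -0.34, standard error 0.0648, limma adjusted p = 0.00201). *MCM4* was at 67.3 and 69.0 FPKM against 81.7 to 84.0 FPKM (log2 difference -0.29, standard error 0.0492, limma adjusted p = 0.00104). *MCM4* kept its call when either replicate 3 library was left out, the 1 subunit that did so. *MCM2*, *MCM6* and *MCM7* were lower, at -0.17, -0.15 and -0.16 (limma adjusted p = 0.0243, 0.0391 and 0.0258), at 88.6%, 90.3% and 89.1% of the level in replicates 1 and 2. The values of *MCM7* overlapped, with control replicate 3 at 231 FPKM and MDM4 replicate 1 at 223 FPKM. *MCM3* was at -0.10 (limma adjusted p = 0.129).

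Of the 4 licensing genes, which load the helicase onto origins, 3 were lower in replicate 3, against 14.6% of all genes. *ORC6*, a subunit of the origin recognition complex, was at 22.0 and 23.8 FPKM in replicate 3 and at 34.1, 34.4, 33.8 and 35.1 FPKM in the others (log2 difference -0.58, standard error 0.0594, limma adjusted p = 5.66e-05). *CDT1* was at 23.8 and 23.6 FPKM against 31.8 to 35.9 FPKM (log2 difference -0.51, standard error 0.0677, limma adjusted p = 2.42e-04). *CDC6* was at 33.6 and 34.6 FPKM against 45.1 to 47.9 FPKM (log2 difference -0.46, standard error 0.0560, limma adjusted p = 1.60e-04). In each of these 3 genes the replicate 3 libraries of both groups lay close together and below all others. *ORC1*, which with *ORC6* forms part of one complex, was at 12.4 and 11 FPKM in replicate 3 and 11.7 to 12.8 FPKM in the others (log2 difference -0.08, limma adjusted p = 0.459), and its replicate 3 difference was 0.04 in control and -0.20 in MDM4 libraries.

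Among the genes that turn the loaded helicase into a moving fork, *MCM10*, *GINS1* and *GINS2* were lower in replicate 3. *MCM10* was at 11.4 and 12.8 FPKM against 15.9 to 17.1 FPKM (log2 difference -0.45, standard error 0.0680, limma adjusted p = 5.47e-04). *GINS1* was at 15.7 and 15.6 FPKM against 18.3 to 20.7 FPKM (log2 difference -0.30, limma adjusted p = 0.00648), and *GINS2* gave -0.19 (limma adjusted p = 0.0441). Their products belong to one GINS complex, and both lay below the other libraries. *CDC45* gave -0.12 (limma adjusted p = 0.149).

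Few genes of the elongating fork were called in the main fit, which depended on the scaling. Of *PCNA* and the clamp loader genes *RFC2*, *RFC3*, *RFC4* and *RFC5*, 1 of 5 was called, against 44.1% of all genes. With median ratio scaling all 5 were called lower, where 23.0% of all genes were lower. The gene called in the main fit was *RFC3*, at -0.22 (limma adjusted p = 0.0273). *PCNA*, the sliding clamp, was at 227 and 215 FPKM in replicate 3 and at 245, 241, 222 and 238 FPKM in the others, so that the libraries overlapped (log2 difference -0.10, limma adjusted p = 0.104). *RFC2*, *RFC4* and *RFC5* were at -0.09, -0.05 and -0.06. Of polymerase alpha with primase, which lays the first bases of each new strand, *POLA1* was at 0.18 (limma adjusted p = 0.0599) and *PRIM1* at 0.02 (limma adjusted p = 0.872). Both had values of the opposite sign to most members, and neither was called.

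Of the 4 genes that make DNA precursors, *RRM2* was called lower in replicate 3 in the main fit. *RRM2*, the S phase subunit of ribonucleotide reductase, was at 143 and 144 FPKM in replicate 3 and at 179, 197, 178 and 191 FPKM in the others (log2 difference -0.37, standard error 0.0544, limma adjusted p = 4.27e-04). *RRM1*, the other subunit, was at 59.1 and 63.0 FPKM against 64.1 to 69.7 FPKM (log2 difference -0.13, limma adjusted p = 0.0894). The 2 subunits of the enzyme thus differed in call in the main fit, but the difference between them was not tested. *TYMS*, which makes thymidylate, and *TK1*, which salvages thymidine, were at -0.09 and -0.11 (limma adjusted p = 0.281 and 0.205). With median ratio scaling all 4 of these genes were called lower, where 23.0% of all genes were lower. *RRM1* was then at -0.23 (limma adjusted p = 0.00788). *UHRF1* was at 30.6 and 30.5 FPKM in replicate 3 and at 47.2, 44.7, 46.7 and 45.7 FPKM in the others, 66.3% of their level (log2 difference -0.59, standard error 0.0555, limma adjusted p = 4.09e-05).

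The last comparison asked whether the MDM4 effect differed between replicate 3 and replicates 1 and 2. It rests on 1 pair of replicate 3 libraries. *MDM4* itself rose less there (log2 difference of the effect -1.35, limma adjusted p = 0.00166). Of the members, 0 of 41 were called (limma), against 0.194% of all genes, 0 had an unadjusted p under 0.05, against 2.27% of all genes, and voom called 0. The members' values ran from -0.24 (*ORC1*) to 0.22 (*RBL1*). Relative to replicates 1 and 2, 31 members were lower in replicate 3 of both groups (29.3% of all genes) and 8 were higher in both (54.6%). *CCNE1* was at -0.63 in both groups, and *UHRF1* was at -0.59 in control and -0.60 in MDM4 libraries. The control group alone had a median of -0.18 and the MDM4 group alone one of -0.14.

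**Figure D4:**
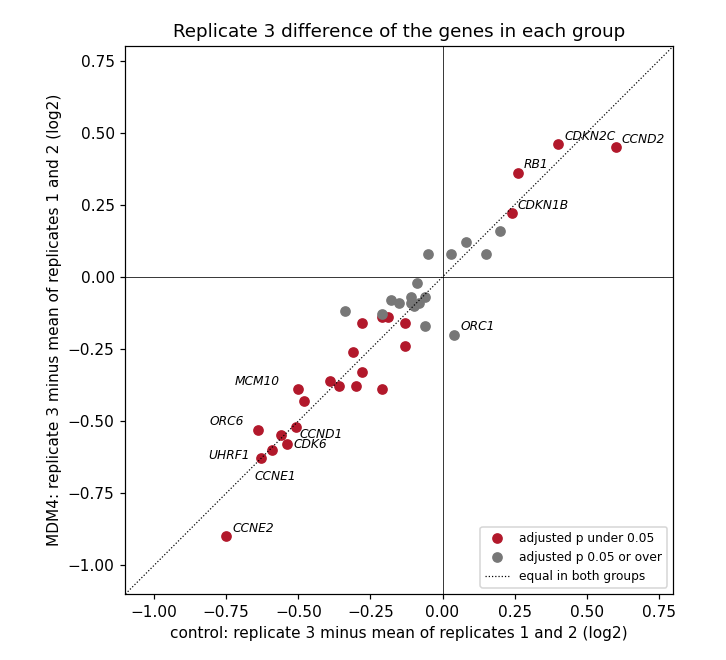
Replicate 3 minus the mean of replicates 1 and 2, on the log2(FPKM + 0.1) scale, for each of the 41 genes in the control libraries (horizontal axis) and the MDM4 libraries (vertical axis); red marks a limma adjusted p under 0.05 and the dotted line equal values. CCNE2 lies lowest at -0.75 and -0.90, CCND2 lies farthest right at 0.60 and 0.45, and 39 of the 41 points have the same sign in both groups.

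A list of 66 other G1/S and replication genes, written from general knowledge, gave the wider pathway. Between MDM4 and control libraries 0 of 66 were called (limma), against 0% of all genes. An unadjusted p under 0.05 was found for 0 of them, against 1.72% of all genes. The median was 0.02, against -0.01 for all genes. Voom called 0 of the 66, and 0% of all genes. Among those with the largest differences were *E2F7* at 0.25, *RRM2B* at 0.23 and *CDC7* at 0.19. In replicate 3, 35 of 66 (53.0%) were called, 22 lower (33.3%) and 13 higher (19.7%), with a median of -0.05. Over all genes 44.1% were called, 14.6% lower and 29.6% higher, with a median of 0.09. With median ratio scaling 31 were lower and 8 higher, where 23.0% of all genes were lower. Without control replicate 3 there were 17 calls among the 66, and without MDM4 replicate 3 there were 17, where 22.2% and 18.8% of all genes were called.

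The called genes of that list with the largest differences again held inhibitors on the higher side. *CDKN1C*, the inhibitor p57, was at 9.66 and 8.64 FPKM in replicate 3 and at 3.47 to 4.50 FPKM in the others (log2 difference 1.2, limma adjusted p = 6.11e-05). *CDKN1A*, the inhibitor p21, was at 131 and 132 FPKM against 76.0 to 92.1 FPKM (log2 difference 0.63, limma adjusted p = 7.27e-05). *CDKN2B*, the inhibitor p15, was at 0.52, and *TFDP2*, an E2F partner, at 0.68. On the lower side, *CDC25A*, the phosphatase that activates *CDK2*, was at 17.0 and 16.7 FPKM against 27.3 to 29.7 FPKM (log2 difference -0.76, limma adjusted p = 1.94e-05). *MCM9*, *FBXO5* and *GINS3* were at -0.69, -0.57 and -0.55.

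Other measures moved with replicate 3 as well. Splitting the tested genes into 3 classes of like size by the length that their FPKM imply, the members' median replicate 3 difference was -0.09 among short genes (15 members), -0.17 in the middle class (15 members) and -0.30 among long genes (11 members), where all genes gave 0.07, 0.09 and 0.13. The summed level of the 10 leukocyte, fibroblast and endothelial markers was 5.66 and 5.72 FPKM in replicate 3 and 2.59 to 3.70 FPKM in the others. *COL1A1* made up most of it, at 3.71 and 3.80 FPKM against 1.6 to 2.33 FPKM, while *PTPRC* and *PECAM1* were at 0 in both replicate 3 libraries. The part of length and of these markers in the replicate 3 differences was not tested.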

How the data were processed

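RNA of SW480 cells was enriched for mRNA with oligo(dT) and sequenced by the authors in 3 control and 3 MDM4 libraries. The authors deposited FPKM per gene symbol; their aligner, annotation and strand setting are not given in the sources used here. Table columns carry a letter and a number, read as group and replicate.

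From these, log2(FPKM + 0.1) of 12884 genes, those averaging 0.5 FPKM or more, was tested with limma 3.58.1 (R 4.3.3; lmFit, then eBayes, trend on), and p-values were adjusted over all of them after Benjamini and Hochberg. A call is an adjusted p under 0.05. The MDM4 comparison had no block, and the replicate 3 comparison had the group as a term. Because FPKM are whole multiples of a step, reads were recovered for 17189 of 17189 genes above 0 (100%), and served for depth and for voom. The fits were tested on simulated data with changes larger than those of any member and a smaller spread than these libraries have. That test does not tell whether small differences would be called. Permutation tests used scipy 1.17.1, and Python 3.11.15, pandas 2.3.3, numpy 2.4.6 and matplotlib 3.10.9 made tables and plots.

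Deviations from the group mean correlated across genes at 0.46, 0.45 and 0.78 between libraries of the same number, and by this check from the data the numbers were taken to pair the libraries. Control 1 with MDM4 2 gave 0.46 too, so the check separates replicate 3 but not replicate 1 from replicate 2.

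All members are named, and of other lists up to 8 called genes, largest first, or the 4 largest where none was called. 1 result under this rule is not reported here. Single markers, and genes that overlap members, were named after their values were seen. The members and lists were chosen with earlier results of these data known.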

Additional observations from a re-analysis of the deposited data

How the results depend on the processing

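Alternatives were pseudocounts of 0.5 and 1, no filter and a mean of at least 5 FPKM, TPM, median ratio and quantile scaling, eBayes without trend, voom on recovered reads, a stricter call, the replicate block and each library left out. In the MDM4 comparison 0 of the 41 members and 0 of the 66 other genes were called in each of them, with replicates 1 and 2 alone too. Over all genes the share called was 0% in most of these fits and at most 0.581%, with replicates 1 and 2 alone. The counts of 0 are thus close to the share over all genes. The difference of the MDM4 effect gave 0 members in each alternative that could be fitted; it could not be fitted without control or without MDM4 replicate 3.

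For replicate 3, the 24 calls among members became 0 when an absolute log2 difference over 1 was also asked. The 35 calls among other genes became 1 (*CDKN1C*), where 2.54% of all genes were called. Leaving out 1 library gave 11 to 27 calls among members and 17 to 41 among other genes, fewest without either replicate 3 library, where the lone replicate 3 library is taken to vary like the others. Across the alternatives other than that stricter call, 11 members kept their call, 13 lost it at least once and 12 gained one at least once. *GINS2*, *MCM2*, *MCM6*, *MCM7* and *RFC3* lost theirs with eBayes without trend, where 19 remained and 37.9% of all genes were called. Median ratio scaling gave 33 calls, of which 22 were among the 24, with 42.1% of all genes called. Voom gave 25, of which 23 were among the 24, with 45.6% of all genes called.

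The replicate block (numbers taken as pairs) changed the call of MDM4 itself (log2 difference 4.33, limma adjusted p = 4.77e-05; with voom 4.44, adjusted p = 1.34e-08) and no other call here. Replicates 1 and 2 alone gave 4.78 (limma adjusted p = 3.01e-11), and leaving out 1 library gave 4.03 to 4.91. Depth limits *CDKN2C* most, with 269 to 472 reads per library. With 3 libraries per group, 1 of which stands apart in each, the intervals of the MDM4 comparison stay wide.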

Other observations

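A list of 30 G2/M and mitosis genes, written from general knowledge, had calls in both directions in replicate 3. Of the 30, 15 were called, 8 lower (26.7%) and 7 higher (23.3%), with a median of 0.00. Over all genes 44.1% were called, 14.6% lower and 29.6% higher, with a median of 0.09. The share called lower was thus above that over all genes and the share called higher below it, as among the members. This difference from all genes was not tested. *CDC25C*, the phosphatase that activates *CDK1*, was at 12.1 and 10.5 FPKM in replicate 3 and at 6.09 to 7.59 FPKM in the others (log2 difference 0.72, limma adjusted p = 8.07e-05). *UBE2C*, which passes ubiquitin to targets of the anaphase-promoting complex, was at 209 and 205 FPKM against 263 to 294 FPKM (log2 difference -0.43, limma adjusted p = 7.95e-05). *CENPF* and *CDC25B* were at 0.36 and 0.30, and *KIF23*, *PLK1*, *CDK1* and *CCNB1* at -0.36, -0.31, -0.25 and -0.25. Between MDM4 and control libraries 0 of the 30 were called (limma), against 0% of all genes. An unadjusted p under 0.05 was found for 0 of them, against 1.72% of all genes. *CDC25C*, *CENPE*, *PTTG1* and *CDC25B* had the largest differences, at -0.26, 0.20, -0.18 and -0.17.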
